A study of Rattus norvegicus with 15 samples.

Results

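Schwann cells are the glia of peripheral nerve, and 7 genes that they use were followed here through the rat prostate: Sox10, Erbb3, Ngfr, Mbp, Pmp22, Cnp and S100b. The genes were chosen by name from a list of peripheral nerve glia, and all 7 were found among the 22436 genes of the deposited table. Only 5 of them passed the filter on low values (more than 0.5 FPKM in 5 or more libraries, met by 12490 genes), since Sox10 and Ngfr were too low. FPKM is the number of fragments per kilobase of gene, scaled to the size of the library, so it can be compared between genes.

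The samples were prostate tissue of SD rats in 3 groups of 5. LIPUS samples came from the disease model after 4 weeks of low-intensity pulsed ultrasound, sound applied in short bursts, for which the sample titles give 1.0 W/cm2 and the treatment field 1.5 W/cm2, so the intensity is unresolved. Model samples came from the untreated rat model of chronic prostatitis with pelvic pain, and Control samples from rats without the model. The agent that made the model, the age of the rats and the lobe of the prostate are not given in the sources used here. Samples carry the numbers 6 to 10 in each group, and the labels do not state that each is its own animal. The p-values therefore describe sample-to-sample spread, part of which may be technical.

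A Schwann cell wraps an axon in myelin, or ensheathes several thin axons without it, and in the prostate it accompanies the autonomic and sensory fibres that run through the stroma. Sox10 is the transcription factor that sets and maintains this identity, Erbb3 is the receptor through which the cell reads neuregulin on the axon, and Ngfr is the low-affinity neurotrophin receptor that immature and repair Schwann cells carry. Mbp, Pmp22 and Cnp encode proteins of myelin and of the myelinating cell, and S100b encodes a calcium-binding protein used to stain Schwann cells. Of these, Sox10 is the most restricted to glia: Erbb3 is also made by epithelia, Pmp22 and Cnp by many cell types, and S100b by adipocytes.

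Promoter sequences are shown for Cnp and Pmp22, neighbours in level among the myelin genes, because one holds and the other lacks the core letters that SOX proteins bind. RefSeq's promoter table for the rat build GRCr8, which is not the build of the deposited values, covers 250 bases before to 50 after a start and had entries for 4 of the 7 genes (S100b, Pmp22, Cnp and, with 2 starts, Mbp). Sox10, Ngfr and Erbb3 had no entry. The capitals mark ACAAAG, searched on both strands, where its reverse complement reads CTTTGT.
Cnp, chr10:86011254-86011553, plus strand: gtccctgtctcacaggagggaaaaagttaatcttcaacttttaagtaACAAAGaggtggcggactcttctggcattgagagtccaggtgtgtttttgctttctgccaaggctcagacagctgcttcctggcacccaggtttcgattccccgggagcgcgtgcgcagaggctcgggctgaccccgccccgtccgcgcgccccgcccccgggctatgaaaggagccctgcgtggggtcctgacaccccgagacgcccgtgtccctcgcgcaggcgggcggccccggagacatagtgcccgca
Pmp22, chr10:48294682-48294981, plus strand: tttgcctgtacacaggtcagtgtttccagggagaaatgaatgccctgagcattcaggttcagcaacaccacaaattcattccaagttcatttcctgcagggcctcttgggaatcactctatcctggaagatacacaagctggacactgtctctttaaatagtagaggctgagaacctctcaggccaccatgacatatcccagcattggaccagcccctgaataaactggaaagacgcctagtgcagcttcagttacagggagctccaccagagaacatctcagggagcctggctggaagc
In Cnp the match lay at -203 to -198 from the start, and 1 of the Mbp promoters held it on the minus strand at -240 to -235. These are 2 of 5 promoters, while 18.8% of 33469 promoters of this length in the table held the same letters. GCGNGGGCG, an EGR-type site that does not overlap with ACAAAG, stood in 0 of the 5 and in 4.98% of all. A match is a description of letters in this window only.

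The libraries of the groups differed in make-up, and these values stand beside every result below. They held 29675962 to 36402094 reads. The 13 mitochondrially encoded genes took 43.0% to 83.3% of reads in LIPUS, 23.5% to 43.5% in Model and 3.75% to 4.69% in Control, and genes with at least 1 read numbered 13035 to 15766 in LIPUS, 14195 to 16284 in Model and 17997 to 18868 in Control. Among genes with 1 to 20 reads, the count was an even number in 73.1% to 81.7% of them in LIPUS, in 67.9% to 77.3% in Model and in 44.1% to 45.9% in Control. The part of these differences in the results was not tested. As deposited, the median tested gene shifted by -0.90 on the log2 scale in Model against Control, by -0.60 in LIPUS against Model and by -1.48 in LIPUS against Control. A change minus this shift is called a relative change. Values divided by a median-of-ratios factor per library are called scaled, and with them the median gene shifted by -0.15, -0.02 and -0.15. Tests were made with limma on log2(FPKM + 0.1), which understates the change of low genes, with Benjamini-Hochberg adjustment over all genes tested. A gene above 0.5 FPKM in the 5 libraries of 1 group alone meets the filter. For a low gene admitted that way, the direction of change is largely fixed.

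**Figure D1:**
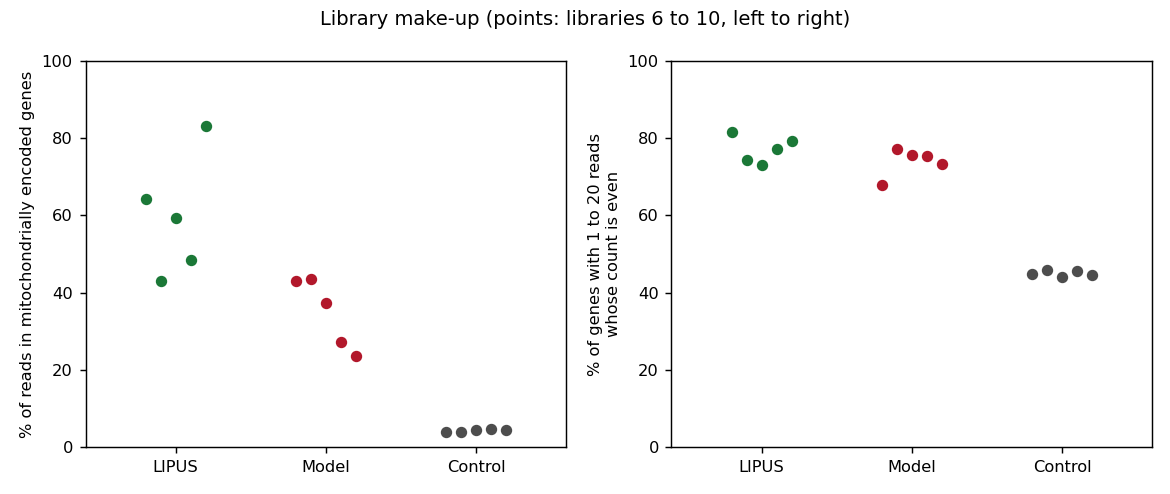
Percent of reads in the 13 mitochondrially encoded genes (left) and percent of genes with 1 to 20 reads whose count is even (right), 1 point per library, for LIPUS, Model and Control. On both axes the 5 Control libraries lie below every LIPUS and Model library.

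S100b, Mbp, Pmp22 and Erbb3 fell in Model prostates against Control prostates, where 43.1% of all tested genes were called lower. Sox10 fell in a fit without the filter, where 29.0% of all genes were. With scaled values Mbp, Pmp22 and Sox10 were still called lower, while S100b and Erbb3 were not. Mbp, the main protein that compacts the myelin sheath, averaged 1.15 ± 0.93 FPKM in Model and 7.11 ± 1.20 FPKM in Control (SD, n = 5 each). Pmp22, a membrane protein of compact peripheral myelin, averaged 5.93 ± 1.90 FPKM in Model and 20.3 ± 2.70 FPKM in Control, and Erbb3 averaged 3.17 ± 1.57 FPKM in Model and 8.72 ± 1.02 FPKM in Control. Sox10 had 18 reads over the 5 Model libraries, against 237 reads over the 5 Control libraries. In bulk tissue, fewer cells of a type and less RNA per cell cannot be told apart.

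LIPUS prostates, set against Model prostates, gave a change past the threshold in none of the 7 genes. S100b and Mbp had higher means in LIPUS, while Erbb3 and Pmp22 had lower ones, so the genes did not lie on 1 side. Summed over the 7 genes, the level was 12.4 to 29.8 FPKM in LIPUS, 14.9 to 22.8 FPKM in Model and 53.8 to 66.8 FPKM in Control libraries. As deposited, the sums in LIPUS and Model overlapped, and both lay below every Control library. Of single tested genes, 41.4% in Model and 59.4% in LIPUS also lay wholly below Control as deposited. With scaled values the highest LIPUS library exceeded the highest Control library for S100b (24.2 against 7.78 FPKM), Mbp (9.85 against 5.09) and Cnp (12.4 against 9.24), but not for the other genes. The order of the sums is therefore given for deposited values only.

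**Figure D2:**
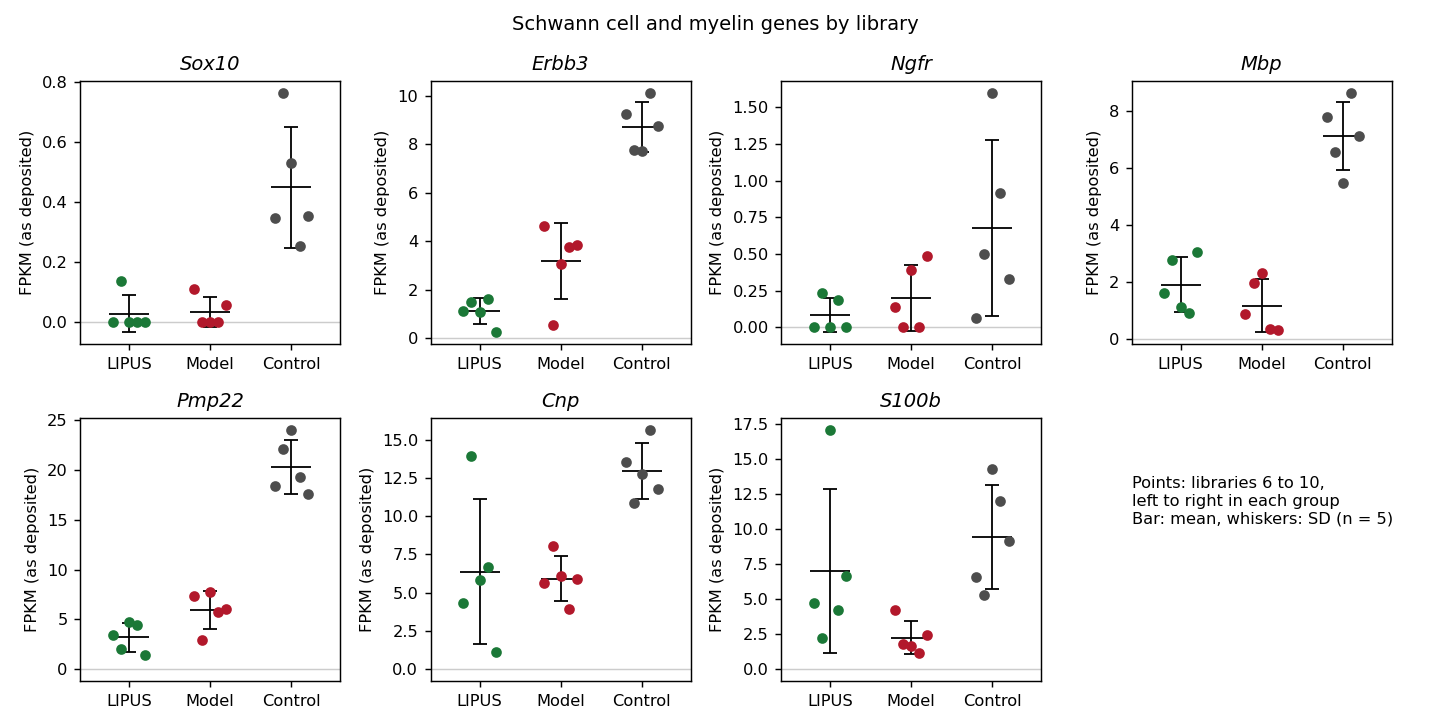
FPKM as deposited of each gene in each library (points, libraries 6 to 10 from left to right), with the mean (bar) and SD (whiskers) of 5 libraries in LIPUS, Model and Control. In 6 of the 7 genes every Model library lies below every Control library, Ngfr being the exception. The same holds for 41.4% of tested genes as deposited.

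Sox10 (NCBI gene 29361) was near the limit of detection outside Control. Its level in libraries 6 to 10 was 0, 0.138, 0, 0 and 0 FPKM in LIPUS, 0.111, 0, 0, 0 and 0.0560 FPKM in Model, and 0.345, 0.762, 0.529, 0.254 and 0.352 FPKM in Control. The same values in reads were 0, 14, 0, 0 and 0 in LIPUS, 12, 0, 0, 0 and 6 in Model, and 36, 82, 58, 28 and 33 in Control. Every Control library held the transcript, whereas 1 LIPUS and 2 Model libraries did, and no LIPUS or Model library reached the lowest Control library. Each of the 7 libraries without a read allows, by counting error alone, up to 3 reads, equal to a Sox10 level of 0.0293 to 0.0334 FPKM. That limit takes reads as independent, while most low counts in LIPUS and Model libraries were even numbers, so it may be too low. In a fit of all 22436 genes without the filter, Sox10 changed by -2.04 ± 0.32 (log2, SE) in Model against Control (limma, adjusted p = 0.000357) and by -2.13 in LIPUS against Control (adjusted p = 0.00017). Of all genes in that fit, 29.0% were called lower in Model and 48.4% lower in LIPUS, each against Control. With scaled values Sox10 was again called lower, by -1.45 in Model against Control (adjusted p = 0.00318), where 13.0% of all genes were called lower. In LIPUS against Control the scaled change was -1.56 (adjusted p = 0.00274), where 9.82% were called lower. A count of 0 stays 0 when scaled, so in the 7 libraries without a read scaling does not allow for depth. Reads outside the mitochondrial genes numbered 5655932 to 19087279 in LIPUS, 18351107 to 27060260 in Model and 29557934 to 34696410 in Control. The scaled calls of Sox10 are therefore not a separate check. Between LIPUS and Model, Sox10 stood at -0.09 as deposited (adjusted p = 0.96).

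Ngfr (24596), the p75 receptor, was also too low for the filter, with reads in 2 LIPUS, 3 Model and all 5 Control libraries. It had 0, 0.238, 0, 0.187 and 0 FPKM in LIPUS, 0.138, 0, 0.390, 0 and 0.485 FPKM in Model, and 0.0622, 0.50, 1.60, 0.917 and 0.327 FPKM in Control. The groups overlapped, since the lowest Control library, with 7 reads, lay below 3 Model and 2 LIPUS libraries. Over each group the reads summed to 46 in LIPUS, 114 in Model and 396 in Control. Without the filter the change was -1.34 in Model against Control (limma, adjusted p = 0.154), -0.56 in LIPUS against Model (adjusted p = 0.668) and -1.91 in LIPUS against Control (adjusted p = 0.0310). That last call did not hold with scaled values, at -1.27 (adjusted p = 0.229), nor with Control replicate 7, 8 or 9 or LIPUS replicate 6, 8 or 10 left out (without LIPUS replicate 8, adjusted p = 0.0715). All 8 counts above 0 of Sox10 and Ngfr in LIPUS and Model libraries, from 6 to 56 reads, were even numbers, as most low counts in these libraries were. The part of this in the levels was not tested.

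Erbb3 (29496) forms the neuregulin receptor of Schwann cells together with Erbb2. It had 1.10, 1.49, 1.07, 1.60 and 0.236 FPKM in LIPUS, 4.64, 0.550, 3.05, 3.76 and 3.84 FPKM in Model, and 9.26, 7.74, 7.72, 10.1 and 8.76 FPKM in Control. The 3 groups formed steps, with every LIPUS and every Model library below every Control library and Model replicate 7 alone of its group down among the LIPUS libraries. The change was -1.69 ± 0.51 (log2, SE) in Model against Control (limma, adjusted p = 0.0131) and -3.06 ± 0.51 in LIPUS against Control (adjusted p = 0.000128). Against Model, LIPUS stood at -1.37 ± 0.51 (adjusted p = 0.0728). Without Model replicate 7 this difference was -1.89 (adjusted p = 0.0035), and without LIPUS replicate 7 it was -1.52 (adjusted p = 0.0416). With scaled values, Erbb3 passed only in LIPUS against Control, at -1.73 (adjusted p = 0.0154), with -0.92 (adjusted p = 0.148) in Model against Control and -0.81 (adjusted p = 0.296) in LIPUS against Model.

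Mbp (24547) showed the largest fall of the 5 tested genes in Model. It had 1.60, 2.75, 1.12, 0.913 and 3.05 FPKM in LIPUS, 0.856, 1.95, 2.32, 0.332 and 0.313 FPKM in Model, and 7.77, 6.55, 5.48, 8.63 and 7.12 FPKM in Control. LIPUS and Model overlapped and both lay below every Control library. The change was -2.88 ± 0.49 (log2, SE) in Model against Control (limma, adjusted p = 0.000228), a relative change of -1.99, and it passed with scaled values at -2.12 (adjusted p = 0.0082). In LIPUS against Control it was -1.99 (adjusted p = 0.00218), but -0.59 with scaled values (adjusted p = 0.468). LIPUS replicate 10, the library with 83.3% mitochondrial reads, had 9.85 scaled FPKM, above every Control library at 2.99 to 5.09. In LIPUS against Model the change was 0.90 (adjusted p = 0.186).

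Pmp22 (24660), whose promoter is printed above, had the highest level of the 7 genes in Control. It had 3.40, 1.98, 4.67, 4.47 and 1.38 FPKM in LIPUS, 7.32, 2.88, 7.70, 5.76 and 6.02 FPKM in Model, and 18.4, 22.1, 24.1, 19.3 and 17.6 FPKM in Control. Every LIPUS and Model library lay below every Control library, and 4 of 5 Model libraries lay above every LIPUS library. The change was -1.82 ± 0.35 (log2, SE) in Model against Control (limma, adjusted p = 0.000661) and -2.77 ± 0.35 in LIPUS against Control (adjusted p = 1.36e-05). Both passed with scaled values, at -1.05 (adjusted p = 0.0326) and -1.36 (adjusted p = 0.0117). In LIPUS against Model, Pmp22 stood at -0.94 (adjusted p = 0.0725), and at -1.18 (adjusted p = 0.0137) without Model replicate 7.

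Cnp (25275), the phosphodiesterase of non-compact myelin, varied most in LIPUS. It had 4.30, 14.0, 5.82, 6.70 and 1.09 FPKM in LIPUS, 5.6, 8.03, 6.09, 3.90 and 5.88 FPKM in Model, and 13.5, 10.9, 12.8, 15.7 and 11.8 FPKM in Control. LIPUS replicate 7 lay within the Control range while LIPUS replicate 10 was the lowest library of all, and the Model libraries all lay below Control. The change was -1.14 ± 0.46 (log2, SE) in Model against Control (limma, adjusted p = 0.0529) and -1.39 ± 0.46 in LIPUS against Control (adjusted p = 0.0135). The change in Model against Control passed in a fit without LIPUS replicate 10 (adjusted p = 0.00356), without LIPUS replicate 7 (adjusted p = 0.0242) or without Model replicate 7 (-1.26, adjusted p = 0.0371). Relative to the median gene the changes were small, at -0.25 in Model against Control and 0.10 in LIPUS against Control, and with scaled values neither passed, at -0.37 (adjusted p = 0.317) and 0.02 (adjusted p = 0.969). In LIPUS against Model the sign depended on the scaling, with -0.24 (adjusted p = 0.718) as deposited and 0.39 (adjusted p = 0.38) scaled.

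S100b (25742) had its highest LIPUS library above every Control library. Its level was 4.73, 2.19, 17.1, 4.25 and 6.64 FPKM in LIPUS, 4.19, 1.76, 1.63, 1.12 and 2.43 FPKM in Model, and 6.61, 5.27, 14.3, 12 and 9.16 FPKM in Control. Every Model library lay below every Control library, LIPUS overlapped with both groups, and 4 of 5 LIPUS libraries lay above every Model library. The change was -2.08 ± 0.47 (log2, SE) in Model against Control (limma, adjusted p = 0.0022). With scaled values it was -1.31 (adjusted p = 0.083), and the groups then overlapped. LIPUS against Model gave 1.41 ± 0.47 (adjusted p = 0.0537), a relative change of 2.0, and 2.06 with scaled values (adjusted p = 0.0517). It passed as deposited without LIPUS replicate 7 (1.73, adjusted p = 0.011) or without Model replicate 7 (1.36, adjusted p = 0.046), and the lowest value with 1 library left out was 1.00. LIPUS against Control gave -0.68 (adjusted p = 0.197) as deposited, -1.08 (adjusted p = 0.0314) without LIPUS replicate 8, but 0.74 (adjusted p = 0.366) scaled, so no direction is given for it.

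Counted together, 4 of the 7 genes (S100b, Mbp, Pmp22 and Erbb3, of 5 tested) were called lower in Model against Control, where 43.1% of all tested genes were called lower. With scaled values 2 of the 7 were called lower (Mbp and Pmp22), where 20.2% of all tested genes were. Groups that did not overlap, with Model lower, were found for 6 of the 7 genes (all but Ngfr, with the untested Sox10 among them) and for 41.4% of tested genes. With scaled values they were found for 3 of the 7 (Sox10, Mbp and Pmp22) and for 18.3% of tested genes, and S100b, Cnp and Erbb3 then overlapped with Control. Counts of 0, frequent for Sox10 in Model and LIPUS, stay 0 when scaled. In LIPUS against Control 4 genes were called lower (Mbp, Pmp22, Cnp and Erbb3) beside 74.4% of all tested genes, and 2 with scaled values (Pmp22 and Erbb3) beside 14.3%. Groups that did not overlap, with LIPUS lower, were found for 4 genes (Sox10, Mbp, Pmp22 and Erbb3) and for 59.4% of tested genes, and with scaled values for 3 (Sox10, Pmp22 and Erbb3) and for 15.3%. In LIPUS against Model 0 of the 7 were called, beside 13.3% of tested genes called lower and 1.31% called higher. With scaled values 0 were called there as well, beside 1.49% lower and 2.73% higher. At an unadjusted limma p under 0.05, 3 of the 7 passed between LIPUS and Model (S100b, Pmp22 and Erbb3). These comparisons share samples: Control stands in both comparisons made against it, and Model in 2 of the 3.

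**Figure D3:**
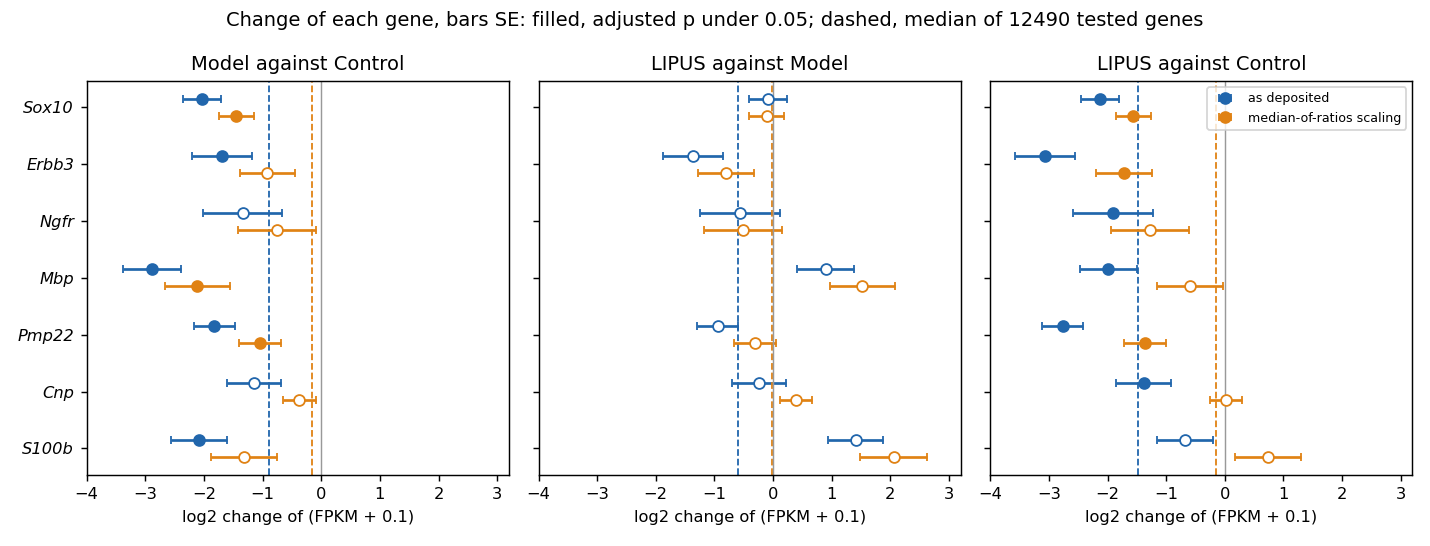
Log2 change of (FPKM + 0.1) with its SE for each gene in the 3 comparisons (1 panel each), as deposited (blue) and scaled (orange), with dashed lines at the median change of all tested genes and filled points at an adjusted p under 0.05; Sox10 and Ngfr come from the fits without the filter. Mbp, Pmp22 and Sox10 are filled on both scales in Model against Control, and no point is filled in LIPUS against Model.

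The order of the levels differed between groups. In Control it ran Pmp22, Cnp, S100b, Erbb3, Mbp, Ngfr and Sox10, at 20.3, 12.9, 9.46, 8.72, 7.11, 0.681 and 0.449 FPKM. Neighbours from Cnp to Mbp had overlapping ranges of mean ± SD, as did Ngfr and Sox10, while Pmp22 stood above Cnp and Mbp above Ngfr beyond them. In Model the order was Pmp22, Cnp, Erbb3, S100b, Mbp, Ngfr and Sox10, at 5.93, 5.90, 3.17, 2.23, 1.15, 0.203 and 0.0335 FPKM, and every pair of neighbours overlapped in mean ± SD. In LIPUS S100b came first at 6.98 ± 5.88 FPKM (SD, n = 5), followed by Cnp at 6.38 ± 4.75, Pmp22 at 3.18 ± 1.47, Mbp at 1.89 ± 0.96 and Erbb3 at 1.10 ± 0.54, with Ngfr at 0.085 and Sox10 at 0.0276 FPKM. In LIPUS neighbours overlapped in the same way except Erbb3 and Ngfr.

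Within groups the genes did not vary as 1 block. With group means subtracted from the scaled log2 values of 15 samples, r between pairs of the 5 tested genes ran from -0.51 (Mbp with Erbb3) to 0.65 (Pmp22 with Erbb3), with 0.56 for S100b with Pmp22 and -0.47 for S100b with Cnp. The same measure found these genes most like each of them: Eid1 (r = 0.93), Vim (0.90) and Dpt (0.90) for S100b, Abitram (0.93), Mrps31 (0.90) and Ttc9 (0.87) for Mbp, and Zdhhc18 (0.95), Dusp3 (0.93) and Pdgfra (0.91) for Pmp22. For Cnp they were Pold1 (0.91), Ocel1 (0.90) and Rab11fip1 (0.90), and for Erbb3 Il17ra (0.99), Tbl2 (0.97) and Abca2 (0.97). Vim encodes the filament protein vimentin, Dpt and Pdgfra mark fibroblasts, and none of the 15 genes was another of the 7. All r values share the 15 libraries and their make-up, and are descriptions.

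Other genes of Schwann cells and myelin, 33 in a separate list, were mostly low. Of 17 tested, 13 fell and none rose in Model against Control, where 43.1% of all tested genes fell, with a median log2 change of -2.16 (relative -1.26). With scaled values 7 of the 17 fell, beside 20.2% of all. Cadm4, an adhesion molecule of the Schwann cell's inner membrane, averaged 0.134 ± 0.208 FPKM in Model and 1.67 ± 0.33 FPKM in Control (SD, n = 5 each). It fell by 3.31 (limma, adjusted p = 0.000488), Sema3b, a semaphorin, by 2.96 (adjusted p = 0.000259) and Art3 by 2.71 (adjusted p = 0.000614). These 3 also passed with scaled values. Their means were under 0.5 FPKM in Model and LIPUS, so they met the filter mainly through Control, and their fall is not independent of the filter. The same holds for Prx, also among the 13. Gap43, a growth-associated protein of axons and immature Schwann cells, had 1.26 ± 0.66 FPKM in Model and 4.08 ± 1.88 FPKM in Control (adjusted p = 0.024), and 4.27 ± 3.53 FPKM in LIPUS, where its change against Model was 1.33 (adjusted p = 0.101).

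Several other genes of this list failed the filter, as Sox10 did. Cdh19, a cadherin of Schwann cell precursors, had 23 reads over the LIPUS libraries, 24 over Model and 414 over Control, and L1cam, an adhesion molecule of non-myelinating Schwann cells and axons, had 0, 4 and 479 in the same order of groups (303 in Control without its replicate 9). Both were chosen for mention after their values were seen. Egr2, the transcription factor of myelination, had 84 reads in LIPUS, 134 in Model and 96 in Control, and so did not share the order of Sox10. Mag was at 0 in every LIPUS and Model library, and had only 27 reads over Control. Between LIPUS and Model 0 of the 17 were called as deposited, and with scaled values 1 rose, Aspa, at 1.29 (adjusted p = 0.031). Against Control, 13 of 17 fell in LIPUS, near the 74.4% of all tested genes called lower. With scaled values 7 fell, beside 14.3% of all tested genes, and 1 rose. The exception in size was Pllp, a plasma membrane proteolipid of myelin that epithelia also make, with 47.2 ± 30.9 FPKM in Model and 5.76 ± 5.05 FPKM in Control (SD, n = 5 each; change 2.37, limma adjusted p = 0.128; scaled 3.13, adjusted p = 0.066), named after its values were seen. Summed over the list, Pllp included, levels were 21.5 to 77.2 FPKM in LIPUS, 45.4 to 158 FPKM in Model and 193 to 251 FPKM in Control.

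The other ErbB receptors and the neuregulin that could be tested fell in Model too. All 4 tested genes of 7 in the list of ErbB receptors and neuregulins fell in Model against Control, beside 43.1% of all tested genes called lower. Their median log2 change was -1.70 (relative -0.81). None passed with scaled values, where 20.2% of all tested genes were called lower. Erbb2, the co-receptor that supplies the kinase, averaged 5.6 ± 2.76 FPKM in Model and 17.3 ± 2.06 FPKM in Control (SD, n = 5 each; change -1.85, limma adjusted p = 0.00577). Erbb4 fell by 1.58 (adjusted p = 0.0221) and Nrg4, a neuregulin, by 1.83 (adjusted p = 0.0232). Both had means under 0.5 FPKM in Model and LIPUS. Nrg1, the neuregulin that axons present to Schwann cells, was not tested and had 22 reads over the LIPUS libraries, 11 over Model and 197 over Control. Against Control, all 4 fell in LIPUS, beside 74.4% of all tested genes, and 3 of them fell also with scaled values, beside 14.3%. Erbb2 stood at 2.52 ± 1.55 FPKM in LIPUS (-2.95, adjusted p = 0.000119). Between LIPUS and Model 0 of 4 were called on either scale.

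Among neurotrophins, their receptors and the partners of Ngfr, 4 of 8 tested genes of 16 fell in Model against Control and none rose, a share near the 43.1% of all tested genes called lower, with a median log2 change of -1.03 (relative -0.14). With scaled values 2 fell and 1 rose, where 20.2% of all tested genes were called lower. Sort1, the sortilin that binds proneurotrophins with Ngfr, averaged 11.8 ± 5.99 FPKM in Model and 52.7 ± 3.90 FPKM in Control (SD, n = 5 each; change -2.41, limma adjusted p = 0.000614). Its relatives Sorcs2 and Sorl1 changed by -3.15 (adjusted p = 0.000362) and -1.71 (adjusted p = 0.00256). LIPUS against Model gave 2 genes that fell, both encoding proteins that bind the intracellular part of Ngfr: Maged1, at 7.67 ± 3.51 FPKM in LIPUS and 29.5 ± 14.4 FPKM in Model (-1.82, adjusted p = 0.0256), and Bex3, at 22.3 ± 7.21 FPKM in LIPUS and 38.0 ± 2.57 FPKM in Model (-0.82, adjusted p = 0.0394). With scaled values neither passed, and Bex3 rose in Model against Control (0.96, adjusted p = 0.00076). Against Control, 7 of the 8 fell in LIPUS, beside 74.4% of all tested genes. With scaled values 4 fell, beside 14.3% of all tested genes, and 1 rose.

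Axon and neuron markers were mostly lower in Model too, though bulk tissue does not show which cells held their RNA. Of 8 tested among the 21 found, 6 fell and none rose in Model against Control, beside 43.1% of all tested genes called lower, with a median log2 change of -2.24 (relative -1.35). With scaled values 2 of the 8 fell, beside 20.2% of all. Nefm and Ret, among the 6, had means under 0.5 FPKM in Model and LIPUS, so their fall is not independent of the filter. Tubb3, the neuronal tubulin, averaged 0.199 ± 0.248 FPKM in Model and 2.34 ± 2.04 FPKM in Control (change -2.86, limma adjusted p = 0.00423). It was the only tested gene of this list called in LIPUS against Model, at 1.24 ± 0.965 FPKM in LIPUS and a change of 2.31 (adjusted p = 0.0431; scaled 2.94, adjusted p = 0.052). Nefl, the light neurofilament, fell by 2.48 in Model against Control (adjusted p = 0.00301), and Uchl1 by 1.44 (adjusted p = 0.00591; scaled -0.67, adjusted p = 0.30). Th and Dbh, enzymes of noradrenaline synthesis in sympathetic neurons, were at 0 in every Model library, and had 28 and 22 reads over LIPUS. Over Control Th had 332 reads (87 without Control replicate 8) and Dbh 453 (141 without that library). Vip had 0 reads in LIPUS and Model and 263 in Control (90 without Control replicate 9). All 3 were at 0 in Control replicate 10, and they were chosen for mention after their values were seen. Calca, also untested, went the other way, with 26 reads over Model, 1 over Control and 0 over LIPUS. Summed levels ran from 10.2 to 45.7 FPKM in LIPUS, 7.04 to 16.2 in Model and 20.2 to 117 in Control.

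**Figure D4:**
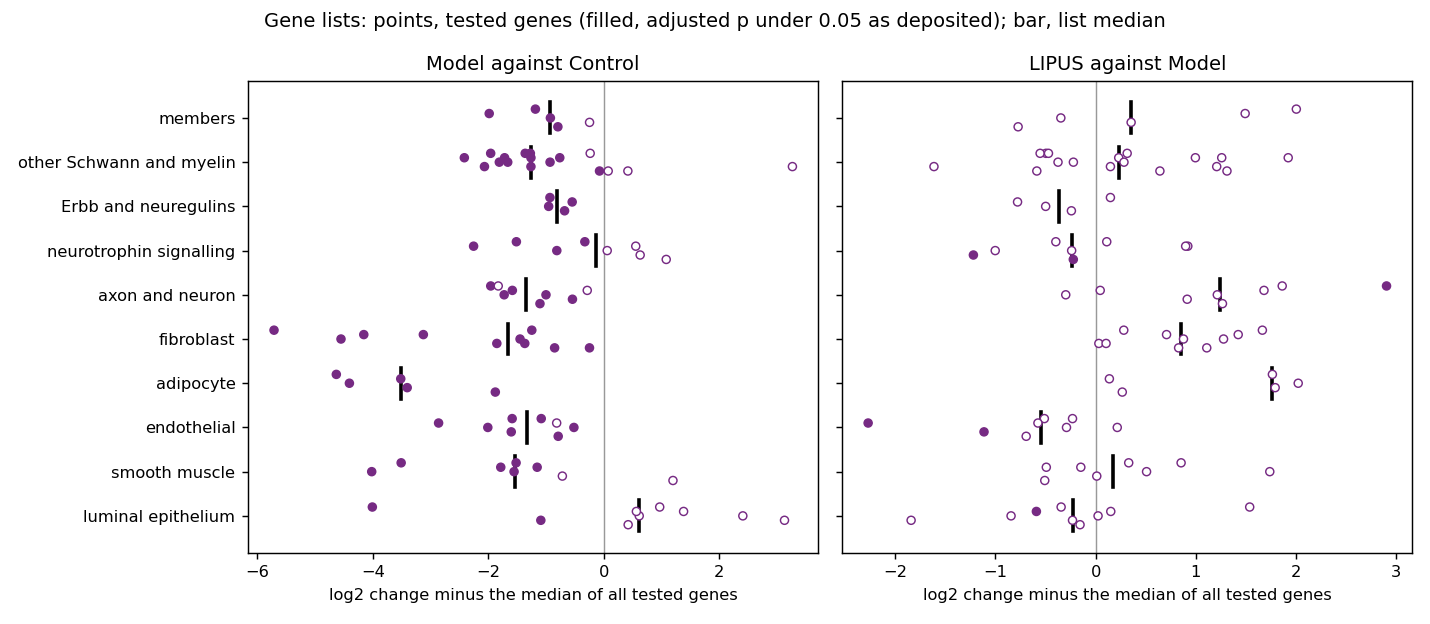
Log2 change minus the median change of all tested genes, in Model against Control (left) and LIPUS against Model (right), 1 point per tested gene of each list, filled where the adjusted p as deposited was under 0.05, with the list median as a bar. In Model against Control the medians of the 7 genes, of the other Schwann cell genes (-1.26) and of fibroblast, adipocyte, endothelial and smooth muscle markers all lie below 0.

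Markers of other stromal cells fell as well in Model against Control, where 43.1% of all tested genes fell as deposited and 20.2% scaled. All 10 fibroblast markers fell, 7 of them also with scaled values, with a median relative change of -1.65, and their summed level was 112 to 307 FPKM in LIPUS, 93.0 to 203 FPKM in Model and 814 to 1483 FPKM in Control. Col1a1, a collagen of fibroblasts, changed by -6.61 (limma, adjusted p = 1.24e-08) and Col3a1 by -5.45 (adjusted p = 1.45e-08), and Fbln1 fell as well. All 5 tested adipocyte markers of 7 fell, 4 of them also scaled, with a median relative change of -3.52 and summed levels of 2.16 to 15.3 FPKM in LIPUS, 0.50 to 11.7 FPKM in Model and 20.1 to 253 FPKM in Control, Adipoq, Plin1 and Lpl among them. Endothelial markers fell in 7 of 8 cases (4 of 8 scaled), among them Cdh5 by 3.76 (adjusted p = 1.06e-05). Smooth muscle markers fell in 6 of 8 cases (3 of 8 scaled), among them Acta2 by 4.41 (adjusted p = 1.53e-06). Their summed levels were 0.873 to 3.45 FPKM in LIPUS, 1.44 to 12.8 FPKM in Model and 21.5 to 39.4 FPKM in Control for endothelium, and 213 to 344 FPKM in LIPUS, 86.0 to 725 FPKM in Model and 1078 to 2968 FPKM in Control for smooth muscle. Cdh5, Vwf, Kdr and Tie1 of endothelium and Plin1 and Cidec of adipocytes had means under 0.5 FPKM in Model and LIPUS. They met the filter mainly through Control, so their fall, counted above, is not independent of the filter. No marker of these 4 lists was at 0 in every library of a group. Their part in the change of the 7 genes was not tested.

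Luminal epithelial and immune markers did not all fall in Model against Control, where 43.1% of all tested genes fell as deposited and 20.2% scaled. Of 9 luminal epithelial markers 2 fell and none rose in Model against Control as deposited, Cdh1 among them (-1.99, limma adjusted p = 0.0104; scaled -1.21, adjusted p = 0.10), with a median relative change of 0.61. With scaled values 1 fell and 2 rose, Krt18 at 1.26 (adjusted p = 1.16e-05) and Krt8 at 0.85 (adjusted p = 0.00382). Their summed level was 3163 to 43301 FPKM in LIPUS, 621 to 178491 FPKM in Model and 4359 to 60920 FPKM in Control, so the labelled tissue's epithelium was present in every library. All 5 basal epithelial markers fell (3 scaled), Krt5 by 3.38 (limma, adjusted p = 1.6e-05), and their summed level was 8.66 to 79.2 FPKM in LIPUS, 4.58 to 43.9 FPKM in Model and 54.3 to 73.4 FPKM in Control. Of 8 tested immune markers 6 fell and 1 rose in Model against Control (4 and 1 scaled). Tp63 and Col17a1 of the basal list and Kit of the immune list had means under 0.5 FPKM in Model and LIPUS. Their fall is not independent of the filter. In LIPUS against Model 4 immune markers rose and none fell, beside 1.31% of all tested genes called higher. Among the 4 were Ptprc at 1.37 (limma, adjusted p = 0.0254), Csf1r at 1.85 (adjusted p = 0.0293) and Cpa3 at 2.41 (adjusted p = 0.0184). Immune markers summed to 23.7 to 46.2 FPKM in LIPUS, 13.5 to 27.0 FPKM in Model and 51.5 to 61.5 FPKM in Control. Of the central glia and melanocyte markers, which share genes such as Mbp and Sox10 with Schwann cells, 1 of 9 found was tested, Mitf (0.06 in Model against Control, adjusted p = 0.896). Mog, Mobp, Aqp4, Slc1a2 and Dct were at 0 in every LIPUS and Model library. Over Control they had only 14, 1, 38, 51 and 6 reads, in that order. That list summed to 0.640 to 1.16 FPKM in LIPUS, 0.681 to 2.56 FPKM in Model and 1.40 to 2.07 FPKM in Control.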

How the data were processed

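Per the labels' protocols, RNA of 15 prostate samples was extracted with TRIzol and sequenced from VAHTS Universal V5 libraries. The authors deposited FPKM for 22436 genes. The submitters' processing notes name build rn6 and the tools HISAT2, HTSeq, DESeq2, fastp, SAMtools and R 3.2.0, with roles and strand not given in the sources used here, so overlapping antisense genes cannot be told apart. Whole reads (within 0.001) were recovered from the steps of the FPKM for 22436 of 22436 genes, without a check for the 1802 seen in 1 library, and served for depth and as an alternative test. The deposited FPKM, as log2(FPKM + 0.1), were fitted with limma 3.58.1 in R 4.3.3 (all 15 samples, 1 mean per group, trended empirical Bayes, adjusted p under 0.05, 12490 genes tested). That fit assumes that the groups vary alike, while mitochondrial percent had an SD of 15.7 in LIPUS, 9.18 in Model and 0.406 in Control. Median-of-ratios factors used the 10313 genes that are above 0 throughout. No 2 libraries agreed within sampling noise. The script was tested on simulated data.

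The 7 genes and all lists were chosen with earlier results of these data known. Named by rule were the 7 genes, from each list up to 3 genes with the smallest p called in Model against Control and up to 3 in LIPUS against Model (2 with the highest mean where none was called), further genes by name (Erbb2, Nrg1, Egr2, Gap43 and Tubb3 among them), and the 3 genes most like each tested gene; in the lists of other cells a shorter selection of these is printed, and some named genes are not reported here. Scn10a, Olig2 and Tyr were not matched in the table. Alternatives were other scalings, filters, pseudocounts, weights and leaving out each library.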

Additional observations from a re-analysis of the deposited data

Results flagged for a closer look

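Sox10 in the LIPUS libraries was marked because 1 sample stood apart from the rest of its group: LIPUS replicate 7 had 0.138 FPKM (14 reads), and the other 4 LIPUS libraries had 0. With the other libraries at 0, any single value above 0 meets Dixon's criterion, so the mark says only that 1 library held reads. Without that library, Sox10 stood at -0.34 (log2; limma, adjusted p = 0.47) in LIPUS against Model and at -2.38 (adjusted p = 3.7e-05) in LIPUS against Control.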

How the results depend on the processing

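Genes called in LIPUS against Model, 1820 as reported, numbered 812 without the filter, 527 with median-of-ratios scaling, 479 with quantile normalization, 315 rescaled to nuclear genes, 3 with only the 2 groups compared, 3637 with array weights, and 8 to 4576 with 1 library left out (4576 without LIPUS replicate 7, 4040 without Model replicate 7, 8 without Model replicate 9). Of the 7 genes, 0 as reported, 2 were called there with array weights, 1 with a pseudocount of 1 or the stricter filter (above 1 FPKM), and 0 to 3 with 1 library left out. In Model against Control, array weights gave 8953 genes (5750 as reported), and median-of-ratios scaling or quantile normalization called 2 of the 7 (4 as reported). In LIPUS against Control, where 4 of the 7 were called as reported, median-of-ratios scaling gave 3230 genes, quantile normalization 3264 and rescaling to nuclear genes 2810, with 2 of the 7 under each. Median-of-ratios scaling with a library left out was added after seeing the data. Without LIPUS replicate 10 it gave 3230 genes in LIPUS against Control and 184 in LIPUS against Model, and without Model replicate 7 it gave 4296 and 4001. Of the 7 genes it called 2 in LIPUS against Control both times, 3 in LIPUS against Model without Model replicate 7, and in Model against Control 2 without LIPUS replicate 10 and 1 without Model replicate 7. The replicate block, a term for the shared replicate numbers, gave 3 genes in LIPUS against Model and 5590 and 9287 in Model and LIPUS against Control, and changed no call of the 7. Same-numbered samples correlated at -0.42 to 0.25 after removal of group means, and the labels state no pairing. Whether the numbers mark a shared batch cannot be told from so few samples per group.

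Directions turned for Cnp in LIPUS against Model (-0.24 as reported) with median-of-ratios scaling (0.39), quantile normalization (0.38), rescaling to nuclear genes (0.53), array weights (0.081) and the added settings (0.66 without LIPUS replicate 10, 0.46 without Model replicate 7), with a range of -0.62 to 0.27 when 1 library was left out. In LIPUS against Control, Cnp (-1.39 as reported) stood at 0.019 with median-of-ratios scaling, 0.0021 with quantile normalization and, in the added settings, 0.29 and 0.019, and S100b (-0.68 as reported) at 0.74, 0.78, 0.67 (nuclear genes), 0.42 and 0.74. Sox10 in LIPUS against Model ran from -0.34 to 0.090 with 1 library left out. Of 576 values of single genes, 511 kept direction and side of the threshold, 28 lost it, 20 gained it and 17 turned. The cause was not tested. Depth limits Sox10 and Ngfr, where a count of 0 allows up to 3 reads if reads are independent, and possibly more.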
